A study of Mus musculus with 10 samples.

Results

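The hnRNP and SR splicing factors are RNA-binding proteins that coat transcripts and steer the choice of splice sites. The 36 members described here, of 23420 genes counted, were every gene whose symbol starts with Hnrnp or with Srsf and a number, together with Rbmx, Rbmxl2, Ptbp1, Ptbp2, Ptbp3, Tra2a and Tra2b. The data are polyA RNA-seq counts of spermatogenic cells from mouse testes at postnatal day 18, obtained from seminiferous tubules with collagenase, trypsin and a filter, and no sort is described. Of 10 libraries, 5 were Ino80cKO, in which Stra8-Cre deletes Ino80 in the testis, and 5 were Ino80WT, all on a mixed strain background. Stra8-Cre is a Cre recombinase under a promoter that is active in male germ cells. The labels do not say whether Ino80WT mice carried the Cre or whether each library came from its own animal, and p-values therefore measure the spread between libraries, part of which may be technical. INO80 is a chromatin remodeller that moves nucleosomes with the energy of ATP.

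hnRNPs (heterogeneous nuclear ribonucleoproteins) bind nascent transcripts and often repress the exons they sit on, whereas SR proteins carry a domain rich in serine and arginine, bind exonic enhancers and recruit the spliceosome. Alternative splicing is widespread in the testis, and germ cells use their own relatives of several general factors. RBMXL2 is encoded by an autosomal retrocopy of the X-linked Rbmx and works in meiotic cells, where the X is silenced. PTBP2 takes over in part from PTBP1 as male germ cells differentiate. Gene-level counts measure the abundance of these transcripts and carry no information on how they or their targets were spliced.

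The promoters of 2 pairs of relatives that moved in opposite directions, Ptbp2 with Ptbp1 and Rbmxl2 with Rbmx, are shown first. Each line gives the 250 bases before the start in the RefSeq promoter table (build GRCm38.p6, the sequence of mm10), 5′ to 3′ on the gene's strand. The table's starts for Ptbp2 and Rbmx lie inside the spans of these genes given below. The Ptbp2 window lies wholly, and the Rbmx window in small part, within the gene. Capitals mark matches, on either strand, to AANATGGC (the core of the element bound by YY1, a factor that associates with the INO80 complex), to the MYB element in its spellings CAACGG or CAACTG or TAACGG or TAACTG, to the cAMP response element TGACGTCA, or to CCAAT.
Ptbp2 (GRCm38.p6, chr3:119783389-119783638, minus strand): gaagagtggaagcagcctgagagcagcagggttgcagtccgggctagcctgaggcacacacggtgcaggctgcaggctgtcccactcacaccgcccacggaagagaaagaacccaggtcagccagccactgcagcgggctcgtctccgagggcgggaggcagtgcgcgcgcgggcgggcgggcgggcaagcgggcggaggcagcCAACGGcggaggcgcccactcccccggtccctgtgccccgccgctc
Ptbp1 (GRCm38.p6, chr10:79854182-79854431, plus strand): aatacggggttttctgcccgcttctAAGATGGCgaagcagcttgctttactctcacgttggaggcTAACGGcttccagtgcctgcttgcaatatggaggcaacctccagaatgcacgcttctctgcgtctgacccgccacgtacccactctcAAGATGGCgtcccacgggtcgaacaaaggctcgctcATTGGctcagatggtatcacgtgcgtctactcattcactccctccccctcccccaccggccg
Rbmxl2 (GRCm38.p6, chr7:107209195-107209444, plus strand): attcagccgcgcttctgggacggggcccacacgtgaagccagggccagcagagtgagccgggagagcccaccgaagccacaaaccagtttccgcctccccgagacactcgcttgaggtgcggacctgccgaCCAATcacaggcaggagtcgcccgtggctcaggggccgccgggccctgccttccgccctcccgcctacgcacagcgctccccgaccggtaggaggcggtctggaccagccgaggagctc
Rbmx (GRCm38.p6, chrX:57393037-57393286, minus strand): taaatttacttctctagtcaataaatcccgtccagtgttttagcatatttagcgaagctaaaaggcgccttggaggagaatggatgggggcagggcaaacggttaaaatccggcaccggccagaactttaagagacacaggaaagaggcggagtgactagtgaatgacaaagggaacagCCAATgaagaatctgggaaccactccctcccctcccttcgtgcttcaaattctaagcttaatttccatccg
Ptbp1 held 2 copies of the YY1 letters, a MYB match and the reverse complement of CCAAT, and Ptbp2 held a single MYB match. Rbmxl2 and Rbmx each held a CCAAT match in these windows, which were 70.0% and 46.8% G and C. The table held 46 promoters of 34 members (Hnrnpul2 and Ptbp3 were not matched). Within the same 250 bases, AANATGGC was found in 6.52% of them and in 3.91% of all 32851 promoters, and a MYB spelling in 30.4% and 23.7%. CCAAT was found in 52.2% of the members' promoters and 33.9% of all promoters, and TGACGTCA in 2.17% and 1.55%. AANATGGC was found in 0 of 23 promoters of members that fell, 1 of 4 of members that rose and 2 of 19 of members that did not pass. These numbers are too small to set against the 3.91% of all promoters, and a link with direction was not tested. A MYB spelling was found in 6 of the 23 (26.1%), near the 23.7% of all promoters. A match describes letters and not a bound site.

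Between 16750609 and 23700094 reads per library were counted in genes. Levels are TMM-scaled CPM, which are counts relative to the total in genes, and the floor of 3 counts was 0.127 to 0.179 CPM before that scaling, which covers counting error only. Fold changes are Ino80cKO over Ino80WT from edgeR's quasi-likelihood test on the 15265 genes that passed the count filter. Errors are SE for log2 fold changes and SD for CPM, with n = 5 libraries per group. Ino80 had 96 ± 1.37 CPM in Ino80cKO and 94.9 ± 12.6 CPM in Ino80WT (log2 fold change 0.016 ± 0.088, edgeR adjusted p = 0.889). The deleted exons are not given and the remaining ones still yield reads, so this level says nothing about the labels or the deletion. The ribosomal RNA precursor Rn45s was highest in Ino80WT 1 and 2, with 7.08% and 4.66% of gene counts, and was 1.6% to 3.76% in the other libraries. Pachytene spermatocyte markers were present in every library and lower in Ino80cKO for 11 of 11 tested, with a summed level of 1264 to 2205 CPM in Ino80cKO and 3538 to 6204 CPM in Ino80WT (lowest in Ino80cKO 3, highest in Ino80WT 3). Sertoli cell markers were higher for 5 of 10 and lower for none, at 4006 to 5272 CPM in Ino80cKO and 2714 to 4138 CPM in Ino80WT. Sertoli, Leydig and peritubular sums were all highest in Ino80cKO 3 and lowest in Ino80WT 3. Spermatogonial markers were higher for 3 of 10 and lower for 1, at 757 to 862 CPM in Ino80cKO and 606 to 776 CPM in Ino80WT. Leydig, peritubular and macrophage markers were higher for 3 of 5, 3 of 5 and 4 of 6 tested, with summed levels of at most 1215 CPM in every library. None of the endothelial or red blood cell markers passed. The red blood cell marker Beta-s had 4.96 ± 1.93 CPM in Ino80cKO and 4.75 ± 3.41 CPM in Ino80WT. Alas2 had 1.66 ± 0.79 and 2.07 ± 0.83 CPM. The hemoglobin gene Hba-a1 had 0 counts in every library. Reads that did not align uniquely were not counted in genes, so this does not show that its RNA was absent. In bulk RNA, fewer cells of a type and less RNA per cell cannot be told apart, and the part of cell composition in the results below was not tested.

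Most changes among the splicing factors were falls of modest size. All 36 members passed the count filter. In Ino80cKO 18 were lower, 4 were higher and 14 did not pass an edgeR adjusted p of 0.05, so that 50% of the members were lower and 11.1% higher, against 27.6% and 18.3% of all genes tested. Either way, 61.1% of members and 45.9% of all genes were called. The median log2 fold change of the members was -0.20, and that of all genes was 0.02. Levels of the groups did not overlap for 22 members, 19 lower and 3 higher, or 61.1%, against 32.0% of all genes (22.0% lower and 9.97% higher). Only Ptbp2, Srsf12 and Rbmxl2 fell by at least 1.5-fold and no member rose by as much, against 14.5% and 3.3% of all genes. Of the 18 members that fell, 10 were lowest in Ino80cKO 3 and 8 highest in Ino80WT 3. These libraries had the lowest and highest summed pachytene marker levels. In the 3 other splicing lists below, the numbers were 11 and 6 of 24 falls, 4 and 4 of 7, and 10 and 14 of 22. No share over all genes is given for these counts, and Ino80WT 3 had the smallest TMM factor (0.895). The part of pachytene cells in the falls was not tested. Without Ino80cKO 3 and Ino80WT 3, 13 of the 36 members were lower and 3 higher, against 22.0% and 12.5% of all genes tested there. Without Ino80WT 1 and 2 the members' counts were 13 and 5 of 36, against 24.0% and 22.2% of all genes.

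The count of falls depended on the scaling. TMM factors were lower in Ino80WT than in Ino80cKO, and with library totals alone the median log2 fold change of all genes was 0.19 and that of the members -0.029, which kept the distance between them at -0.22 under both. By library totals 9 of the 36 members were lower and 6 higher (19.2% and 35.9% of all genes). The share of the members' calls that were lower was then 60.0%, against 81.8% by TMM. The 9 were Ptbp2, Srsf12, Rbmxl2, Hnrnph3, Tra2b, Hnrnpm, Srsf3, Hnrnpf and Srsf11, and the 4 members that rose by TMM rose by library totals too, joined by Ptbp3 and Hnrnpab. As a share of gene counts with no scaling, the 36 members together held 1.21% to 1.24% in Ino80cKO and 1.22% to 1.29% in Ino80WT. After TMM scaling their summed level was 11434 to 11698 CPM in Ino80cKO and 12820.2 to 13619 CPM in Ino80WT. Of the 22 calls, 12 held under all 19 alternative settings, namely the 9 falls just listed and the rises of Hnrnpa1, Hnrnph2 and Ptbp1.

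**Figure D1:**
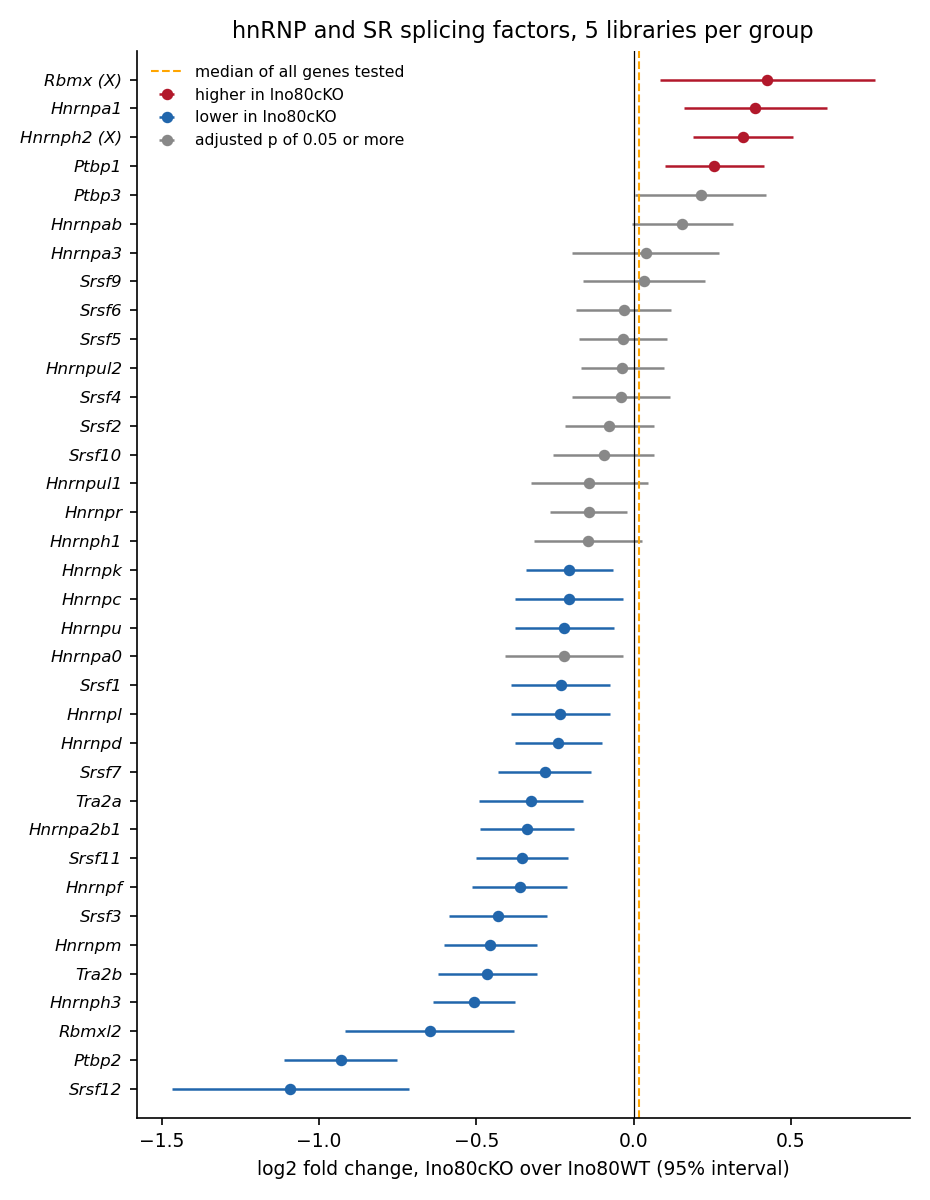
Log2 fold change (Ino80cKO over Ino80WT, TMM scaling) of the 36 hnRNP and SR splicing factors with 95% intervals from edgeR, ordered from highest to lowest; X marks X-linked genes and the dashed line is the median of all genes tested (0.02). The 4 members that rose lie at the top and Rbmxl2, Ptbp2 and Srsf12 at the bottom.

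**Figure D2:**
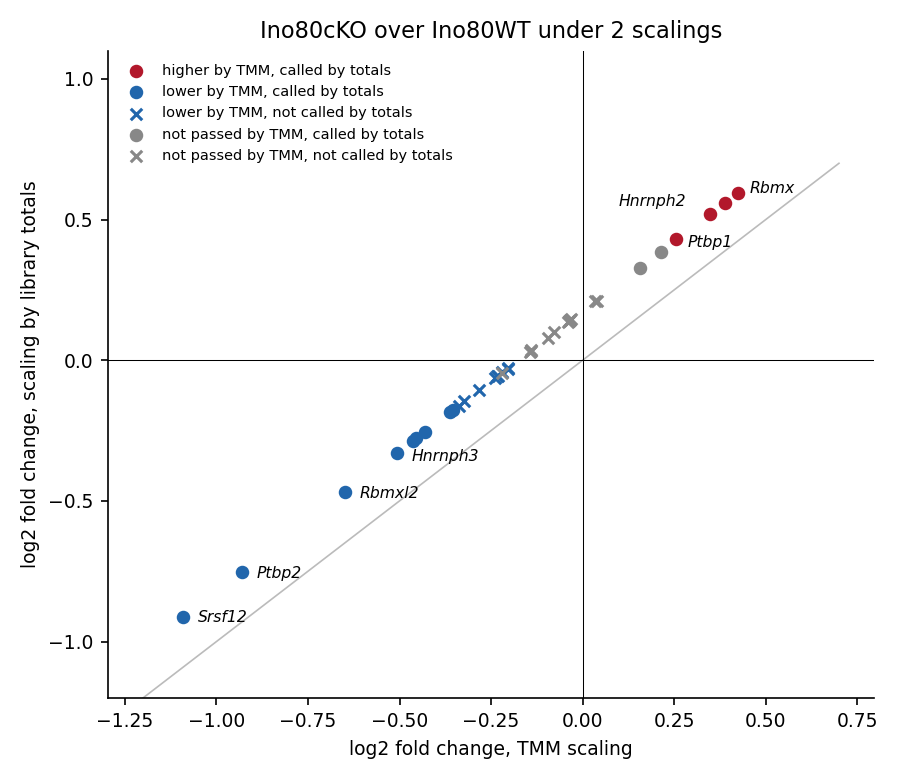
Log2 fold change of each member (Ino80cKO over Ino80WT) by TMM scaling on the x axis and by library totals on the y axis; colour gives the call by TMM, circles passed and crosses did not pass by totals, and the grey line marks equal values. All points lie above the line, and 9 of the 18 blue members remain called as lower by totals.

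The polypyrimidine tract binding proteins, which repress exons next to pyrimidine-rich sequence, moved in opposite directions. Ptbp2 (mm10 chromosome 3, positions 119718741 to 119784647), the form of neurons and germ cells, had 158, 166, 146, 178 and 172 CPM in Ino80cKO libraries 1 to 5, against 290.4, 303, 341, 283 and 349 CPM in Ino80WT libraries 1 to 5. Its groups were far apart, and it fell 1.91-fold (log2 fold change -0.93 ± 0.083, edgeR adjusted p = 3.57e-05). Ptbp1 (mm10 chromosome 10, positions 79854432 to 79864435), the broadly expressed form, had 286, 299, 322, 293 and 326 CPM in Ino80cKO libraries 1 to 5, against 241, 263, 278, 263 and 232 CPM in Ino80WT libraries 1 to 5. Every Ino80cKO library was above every Ino80WT library, and Ptbp1 rose 1.19-fold (log2 fold change 0.26 ± 0.073, edgeR adjusted p = 0.0127). On the opposite strand 26.4% of its exon sequence overlaps annotated genes, whose reads cannot be told apart if counting ignored strand. Ptbp3 had 158 ± 15.1 CPM in Ino80cKO and 136 ± 16.7 CPM in Ino80WT with overlapping groups and did not pass (log2 fold change 0.21 ± 0.10, edgeR adjusted p = 0.0842). It passed as higher by library totals, with RLE factors and with DESeq2.

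Per kilobase of exon, Ptbp2 stood at 33.4 and Ptbp1 at 88.4 CPM in Ino80cKO, and at 63.7 and 74 CPM in Ino80WT. The count ratio of Ptbp2 to Ptbp1 within a library, which no scaling can change, was 0.454 to 0.61 in Ino80cKO libraries and 1.07 to 1.5 in Ino80WT libraries. It was 2.28-fold lower in Ino80cKO (exact two-sided permutation test, p = 0.00794, the smallest these libraries allow, and 0.0159 adjusted over 12 pairs of relatives). The ratio of Ptbp3 to Ptbp1 was 0.449 to 0.563 in Ino80cKO libraries and 0.458 to 0.654 in Ino80WT libraries, with a difference in log2 ratio of -0.039 (exact permutation p = 0.738, adjusted 0.805).

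The RBMX pair also split. Rbmxl2 (mm10 chromosome 7, positions 107209445 to 107210916) is the intronless retrocopy, and its 1472 bases of exon are the whole gene. It had 48.2, 42.4, 35, 52.4 and 55.3 CPM in Ino80cKO libraries 1 to 5, against 78.6, 71.4, 85.2, 66.9 and 63.7 CPM in Ino80WT libraries 1 to 5. The groups did not overlap and Rbmxl2 fell 1.57-fold (log2 fold change -0.65 ± 0.12, edgeR adjusted p = 0.00122). Rbmx (mm10 chromosome X, positions 57383348 to 57393046), the X-linked parent gene that encodes hnRNP G, had 41.4, 47.8, 57.5, 46.7 and 30.7 CPM in Ino80cKO libraries 1 to 5, against 34.3, 37.6, 24.2, 35.8 and 35.3 CPM in Ino80WT libraries 1 to 5. Ino80cKO 5 lay inside the Ino80WT range and Ino80WT 3 far below its group. Rbmx rose 1.34-fold (log2 fold change 0.42 ± 0.16, edgeR adjusted p = 0.0426), but the call was lost in 10 of 19 alternative settings. These included leaving out Ino80WT 3 (log2 fold change 0.33, edgeR adjusted p = 0.082) and leaving out any one of Ino80cKO 1 to 4 or Ino80WT 4 or 5 (edgeR adjusted p from 0.0505 to 0.0867).

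The count ratio of Rbmxl2 to Rbmx was 0.609 to 1.8 in Ino80cKO libraries and 1.81 to 3.51 in Ino80WT libraries, 2.1-fold lower in Ino80cKO (exact two-sided permutation p = 0.00794, adjusted 0.0159). The highest Ino80cKO library, number 5, almost reached the lowest Ino80WT library, also number 5. Leaving out Ino80WT 1 and 2 together gave an adjusted exact permutation p of 0.0918. Per kilobase of exon, Rbmxl2 stood at 31.7 CPM in Ino80cKO and 49.7 CPM in Ino80WT, and Rbmx at 14.4 and 10.8 CPM.

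Both X-linked members were higher, against 2 higher and 18 lower of the 34 autosomal members. Over all genes on the X, 599 were tested, with 49.4% higher and 0.167% lower, and of 14592 autosomal genes 17.0% were higher and 28.8% lower. Beside Rbmx, the X-linked member is Hnrnph2 (mm10 chromosome X, positions 134601179 to 134607060), a member of the F and H group that binds runs of G. It had 72.1, 67.4, 72.1, 70.0 and 72.5 CPM in Ino80cKO libraries 1 to 5, against 52.4, 51.9, 54.2, 64.7 and 54.9 CPM in Ino80WT libraries 1 to 5. Ino80WT 4 stood above the rest of its group and below every Ino80cKO library. Hnrnph2 rose 1.27-fold (log2 fold change 0.35 ± 0.073, edgeR adjusted p = 0.00229). Its autosomal relative Hnrnph1, which is needed for meiosis in mice, had 642, 644, 711, 690.4 and 584 CPM in Ino80cKO libraries 1 to 5, against 688, 725, 674, 729.9 and 801 CPM in Ino80WT libraries 1 to 5. Its groups overlapped and it did not pass (log2 fold change -0.14 ± 0.079, edgeR adjusted p = 0.147). The count ratio of Hnrnph2 to Hnrnph1 was 0.101 to 0.124 in Ino80cKO libraries and 0.0686 to 0.0886 in Ino80WT libraries, 1.41-fold higher in Ino80cKO (exact two-sided permutation p = 0.00794, adjusted 0.0159). Of the 3988-base Hnrnph2 transcript, 18.2% of 50-base stretches also occur in transcripts of other genes elsewhere, nearly all in Gm8775, so its count is less certain.

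**Figure D3:**
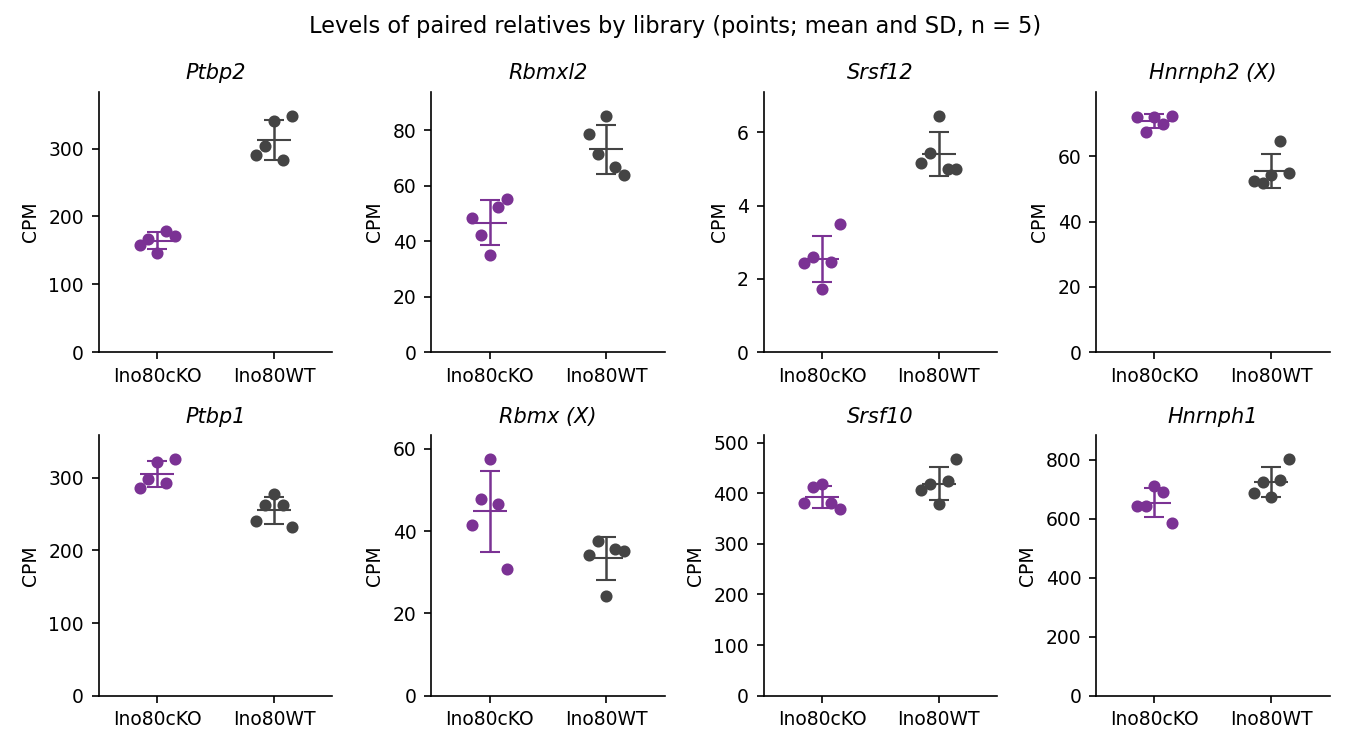
CPM (TMM-scaled) of 4 pairs of relatives in each library, Ino80cKO left and Ino80WT right, with points for libraries, a line for the mean and bars for the SD (n = 5). Ptbp2, Rbmxl2 and Srsf12 are lower in every Ino80cKO library, Ptbp1 and the X-linked Hnrnph2 higher in every one, and Rbmx, Srsf10 and Hnrnph1 overlap.

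The other autosomal members of the F and H group fell. Hnrnph3 had 143, 137, 133, 140.0 and 143 CPM in Ino80cKO libraries 1 to 5, against 207, 201, 203, 183 and 195 CPM in Ino80WT libraries 1 to 5. Its spread within groups was small, and it fell 1.42-fold (log2 fold change -0.51 ± 0.06, edgeR adjusted p = 8.40e-05). Hnrnpf had 561, 572, 518, 544 and 564 CPM in Ino80cKO libraries 1 to 5, against 702, 677, 773, 666 and 729 CPM in Ino80WT libraries 1 to 5, again without overlap, and fell 1.29-fold (log2 fold change -0.36 ± 0.069, edgeR adjusted p = 0.00129). Much of the Hnrnpf transcript, 51.9% of 50-base stretches, recurs in transcripts of 9 other genes elsewhere, so its level is uncertain.

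Among the other hnRNPs several genes fell and a single gene rose. Hnrnpm, which binds GU-rich sequence, had 268, 281, 272, 281 and 287 CPM in Ino80cKO libraries 1 to 5, against 401, 368, 411, 341 and 383 CPM in Ino80WT libraries 1 to 5. It fell 1.37-fold (log2 fold change -0.45 ± 0.069, edgeR adjusted p = 0.000276), with no overlap, and 28.6% of its exon sequence is shared with the neighbouring March2 on the same strand. Hnrnpa2b1, of the A and B group that can repress exons, had the highest level per kilobase of exon of all members in both groups, 488 CPM in Ino80cKO and 617 CPM in Ino80WT. It fell 1.26-fold (log2 fold change -0.34 ± 0.069, edgeR adjusted p = 0.00186). Hnrnpd, which binds AU-rich elements, fell 1.18-fold (edgeR adjusted p = 0.00894) and Hnrnpk, which binds C-rich sequence, fell 1.15-fold (edgeR adjusted p = 0.0208). Hnrnpl, which binds CA repeats, had 318, 319.9, 307, 338 and 338 CPM in Ino80cKO libraries 1 to 5, against 394, 409, 405, 348 and 349 CPM in Ino80WT libraries 1 to 5. The groups lay close without overlap, and it fell 1.18-fold (log2 fold change -0.23 ± 0.073, edgeR adjusted p = 0.0198). Hnrnpu, a nuclear scaffold protein, and Hnrnpc, which binds U tracts, fell 1.16-fold and 1.15-fold (edgeR adjusted p = 0.0252 and 0.0495). All of these from Hnrnpa2b1 to Hnrnpc missed the threshold by library totals, with log2 fold changes from -0.16 to -0.028. The Hnrnpc call was also lost when any one library other than Ino80WT 2, 3 or 4 was left out, that of Hnrnpu without Ino80cKO 1, 3 or 4 or Ino80WT 3 or 5, that of Hnrnpk without Ino80cKO 3 or 4, and that of Hnrnpl without Ino80cKO 3. In these leave-one-out settings the edgeR adjusted p ran from 0.0513 to 0.137. Over all 19 alternative settings, the calls of Hnrnpc, Hnrnpu, Hnrnpk and Hnrnpl were lost in 15, 10, 7 and 5. Each was lost with the replicate number as a block (edgeR adjusted p from 0.0737 to 0.0842). Hnrnpc, Hnrnpu and Hnrnpk were also lost with no filter on low counts, and Hnrnpc and Hnrnpu with RLE factors. Hnrnpc was lost with DESeq2 too (DESeq2 adjusted p = 0.0702). The Hnrnpd call was lost without Ino80cKO 3 and Ino80WT 3 together (log2 fold change -0.19, edgeR adjusted p = 0.0628) and without Ino80WT 1 and 2 together (log2 fold change -0.16, edgeR adjusted p = 0.0878).

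Hnrnpa1, the founding member of the A and B group, had 14.2, 17.2, 16.4, 13.6 and 15.4 CPM in Ino80cKO libraries 1 to 5, against 10.3, 12.5, 11.1, 13.4 and 11.3 CPM in Ino80WT libraries 1 to 5. It rose 1.31-fold without overlap (log2 fold change 0.39 ± 0.10, edgeR adjusted p = 0.00979), but 46.4% of its 50-base stretches recur in transcripts of 19 other genes elsewhere, and its level per kilobase was the second lowest of the members (8.01 CPM in Ino80cKO and 6.11 CPM in Ino80WT), so its count is uncertain. Hnrnpa0, Hnrnpr, Hnrnpab, Hnrnpa3, Hnrnpul1 and Hnrnpul2 did not pass, with log2 fold changes from -0.22 to 0.16. Hnrnpa0 passed as lower without Ino80cKO 5, Ino80WT 4 or Ino80WT 5, and Hnrnpab as higher by library totals, with RLE factors, with DESeq2 and without Ino80WT 1. Hnrnpr, at 198 ± 5.74 CPM in Ino80cKO and 219 ± 4.79 CPM in Ino80WT, had groups that did not overlap and an edgeR adjusted p of 0.0551, and passed with DESeq2 and limma-voom. Hnrpll, the relative of Hnrnpl that the files give under an older symbol and that is therefore not counted among the members, had 139.7, 142, 126, 155 and 156 CPM in Ino80cKO libraries 1 to 5, against 208, 225, 251, 195 and 224 CPM in Ino80WT libraries 1 to 5. Its groups did not overlap (log2 fold change -0.62 ± 0.085, edgeR adjusted p = 0.000157). The ratio of Hnrpll to Hnrnpl was 0.41 to 0.462 in Ino80cKO libraries and 0.529 to 0.643 in Ino80WT libraries, 1.31-fold lower in Ino80cKO (exact two-sided permutation p = 0.00794, adjusted 0.0159).

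Of 11 SR proteins 5 fell (45.5%, against 27.6% of all genes), none rose and 6 did not pass. By library totals Srsf3, Srsf11 and Srsf12 fell, where 19.2% of all genes did. Srsf12 (mm10 chromosome 4, positions 33208991 to 33233343), an SR protein of low level here, had 2.43, 2.6, 1.73, 2.45 and 3.51 CPM in Ino80cKO libraries 1 to 5, against 5.16, 5.44, 6.46, 5.02 and 5 CPM in Ino80WT libraries 1 to 5. It was the lowest member in level per kilobase and had the largest fall of the 36 members, 2.13-fold (log2 fold change -1.09 ± 0.17, edgeR adjusted p = 0.000384), with no overlap. Its closest relative Srsf10, which is needed for spermatogenesis in mice, had 381, 412, 419, 381 and 369 CPM in Ino80cKO libraries 1 to 5, against 406, 418, 378, 424 and 467 CPM in Ino80WT libraries 1 to 5. The groups overlapped and it did not pass (log2 fold change -0.095 ± 0.074, edgeR adjusted p = 0.31). The count ratio of Srsf12 to Srsf10 was 0.00419 to 0.00958 in Ino80cKO libraries and 0.0108 to 0.0171 in Ino80WT libraries, 2.03-fold lower in Ino80cKO (exact two-sided permutation p = 0.00794, adjusted 0.0159).

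Srsf3, a small SR protein that also acts in mRNA export, had 301, 305, 274, 289 and 324 CPM in Ino80cKO libraries 1 to 5, against 431, 374, 398, 386 and 424 CPM in Ino80WT libraries 1 to 5. The groups were well apart, and it fell 1.35-fold (log2 fold change -0.43 ± 0.072, edgeR adjusted p = 0.000499). Its relative Srsf7 had 206, 204, 191, 209 and 228 CPM in Ino80cKO libraries 1 to 5, against 257, 246, 251, 236 and 272 CPM in Ino80WT libraries 1 to 5. This was a fall of 1.22-fold (log2 fold change -0.28 ± 0.068, edgeR adjusted p = 0.00541) that did not pass by library totals. The ratio of Srsf7 to Srsf3 was 0.668 to 0.725 in Ino80cKO libraries and 0.596 to 0.657 in Ino80WT libraries, 1.11-fold higher in Ino80cKO (exact two-sided permutation p = 0.00794, adjusted 0.0159). Of the Srsf3 transcript 31.5% of 50-base stretches recur in other genes elsewhere. Srsf11, an SR-related protein, had 215 ± 7.09 CPM in Ino80cKO and 275 ± 20.1 CPM in Ino80WT and fell 1.28-fold (log2 fold change -0.35 ± 0.068, edgeR adjusted p = 0.00129). Srsf1, which is needed for male fertility in mice, had 499 ± 27.6 CPM in Ino80cKO and 587 ± 38.1 CPM in Ino80WT and fell 1.17-fold (log2 fold change -0.23 ± 0.073, edgeR adjusted p = 0.0203). The Srsf1 call was lost by library totals and without Ino80cKO 3 (edgeR adjusted p = 0.0688) or Ino80WT 5 (0.0514). It was also lost with no filter on low counts (0.0512), with the replicate number as a block (0.0711) and without Ino80WT 1 and 2 together (0.0790). The ratio of Srsf9 to Srsf1 was 0.174 to 0.233 in Ino80cKO libraries and 0.136 to 0.2 in Ino80WT libraries (difference in log2 ratio 0.27, exact permutation p = 0.0635, adjusted 0.0952).

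The SR genes that did not pass had small fold changes. Srsf2, Srsf4, Srsf5, Srsf6, Srsf9 and Srsf10 had log2 fold changes from -0.095 to 0.033, and their 95% intervals together ran from -0.26 to 0.23. Srsf5 had 453 ± 24.2 CPM in Ino80cKO and 464 ± 14.5 CPM in Ino80WT, a log2 fold change of -0.033. By library totals all 6 were above zero, from 0.079 to 0.21, and none passed. The ratio of Srsf6 to Srsf4 was 2.72 to 3.04 in Ino80cKO libraries and 2.73 to 3.06 in Ino80WT libraries (exact permutation p = 0.889, adjusted 0.889). Of Srsf4 exon sequence 67.9% overlaps an annotated gene on the opposite strand, so its count is uncertain if strand was ignored.

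Both TRA2 proteins, splicing activators with SR-like domains that bind GA-rich enhancers, fell by TMM. Tra2b had 255, 269, 250.3, 266 and 295 CPM in Ino80cKO libraries 1 to 5, against 379, 353, 392, 335 and 384 CPM in Ino80WT libraries 1 to 5. It fell 1.38-fold with no overlap (log2 fold change -0.46 ± 0.072, edgeR adjusted p = 0.000332) and also fell by library totals. Tra2a had 121, 119, 106, 123 and 133 CPM in Ino80cKO libraries 1 to 5, against 142, 144, 167, 144 and 158 CPM in Ino80WT libraries 1 to 5. Its fall of 1.25-fold (log2 fold change -0.32 ± 0.076, edgeR adjusted p = 0.00455) did not pass by library totals (log2 fold change -0.15). The ratio of Tra2a to Tra2b was 0.424 to 0.475 in Ino80cKO libraries and 0.374 to 0.429 in Ino80WT libraries, 1.1-fold higher in Ino80cKO (exact two-sided permutation p = 0.0238, adjusted 0.0408), with overlapping groups. That call was lost when any one of Ino80cKO 1, 2, 4 and 5 or Ino80WT 1, 2 and 5 was left out, with adjusted exact permutation p from 0.0544 to 0.0816.

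Sequence shared with genes elsewhere also limits Hnrnpk (34.5% of 50-base stretches), Hnrnpa3 (28.2%), Srsf5 (27.8%), Tra2b (18.3%) and Hnrnpc (12.3%), while Ptbp2 and Srsf12 shared none. Over the 12 pairs of relatives, the count ratio passed for 7, with Tra2a to Tra2b the only one of these whose groups overlapped. No share over other pairs of genes was computed, so this count cannot be called particular to splicing relatives. Of all single genes tested, 45.9% were called and 32.0% had groups that did not overlap. The ratio of Hnrnpul2 to Hnrnpul1 was 0.602 to 0.713 in Ino80cKO libraries and 0.543 to 0.677 in Ino80WT libraries (exact permutation p = 0.198, adjusted 0.265). The ratio of Hnrpdl, an older symbol outside the rule, to Hnrnpd was 1.23 to 1.38 in Ino80cKO libraries and 1.11 to 1.32 in Ino80WT libraries (exact permutation p = 0.325, adjusted 0.39).

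**Figure D4:**
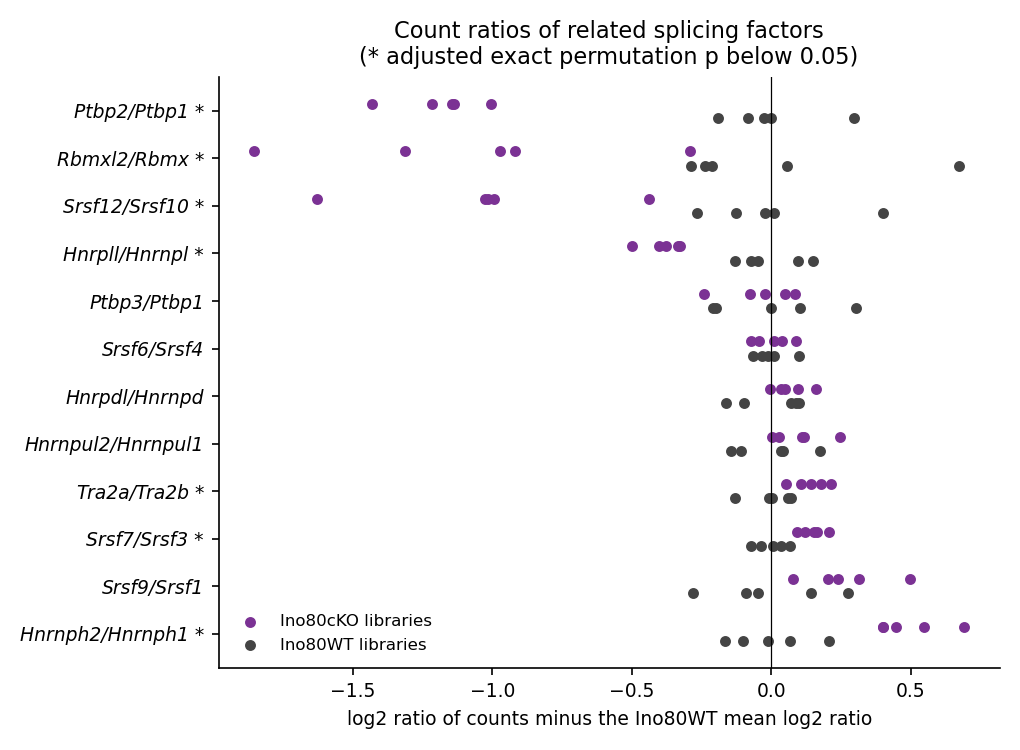
Count ratio of 12 pairs of related splicing factors in each library, as log2 ratio minus the mean log2 ratio of the Ino80WT libraries, with Ino80cKO points above Ino80WT points on each line and a star for an adjusted exact permutation p below 0.05. The ratios of Ptbp2 to Ptbp1, Rbmxl2 to Rbmx, Srsf12 to Srsf10 and Hnrpll to Hnrnpl lie lower in Ino80cKO, and those of Hnrnph2 to Hnrnph1 and Srsf7 to Srsf3 lie higher.

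Other genes of the splicing machinery are given beside the shares of all genes tested, of which 27.6% were lower and 18.3% higher by TMM and 19.2% and 35.9% by library totals. Of 49 tested core proteins of the spliceosome and its small nuclear ribonucleoproteins, 24 were lower (49%), none higher and 25 did not pass, with a median log2 fold change of -0.18 (9 lower and 3 higher by library totals). Sf3b2, a branch-site factor, and U2af1, which reads the end of the intron, fell 1.57-fold and 1.5-fold (edgeR adjusted p = 0.000158 and 0.000303). The U2 protein gene Snrpa1 and the Sm ring gene Snrpe fell 1.43-fold and 1.42-fold (edgeR adjusted p = 0.000516 and 0.000885). Of 15 kinases and phosphatases that act on SR proteins, 7 were lower (46.7%) and 2 higher (13.3%), at a median of -0.18, against 3 lower and 4 higher by library totals. Srpk1, which phosphorylates SR proteins in the cytoplasm, had 226 ± 8.8 CPM in Ino80cKO and 341 ± 46.3 CPM in Ino80WT and fell 1.51-fold (log2 fold change -0.59 ± 0.091, edgeR adjusted p = 0.000319). Ppp1cc, a PP1 catalytic subunit with a testis isoform, its relative Ppp1cb and Ppm1g, a nuclear phosphatase, fell 1.36-fold, 1.27-fold and 1.38-fold (edgeR adjusted p = 0.000528, 0.00146 and 0.00657), of which Ppp1cb did not pass by library totals.

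Among 62 tested RNA-binding splicing regulators outside the hnRNP and SR families, 22 fell and 8 rose, and by library totals 9 fell and 19 rose. By TMM these were 35.5% and 12.9%, against 27.6% and 18.3% of all genes, and the median log2 fold change was -0.075. Khdrbs3, a STAR protein of testis and brain, had 49.3 ± 8.49 CPM in Ino80cKO and 129 ± 16.9 CPM in Ino80WT and fell 2.61-fold (log2 fold change -1.38 ± 0.13, edgeR adjusted p = 3.83e-05). Sltm, a relative of scaffold attachment factors, Ybx1, a Y-box protein, and the paraspeckle gene Pspc1 fell 1.79-fold, 1.7-fold and 1.29-fold (edgeR adjusted p = 3.91e-05, 0.000224 and 0.000486). After TMM scaling, summed levels of all 3 lists were highest in Ino80WT 3, as was that of the hnRNP and SR members. That library had the smallest TMM factor (0.895). As an unscaled share of gene counts, the members were at 1.22% in Ino80WT 3, the lowest of the Ino80WT libraries. The summed pachytene marker level was highest in the same library, and its part in these values was not tested.

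**Figure D5:**
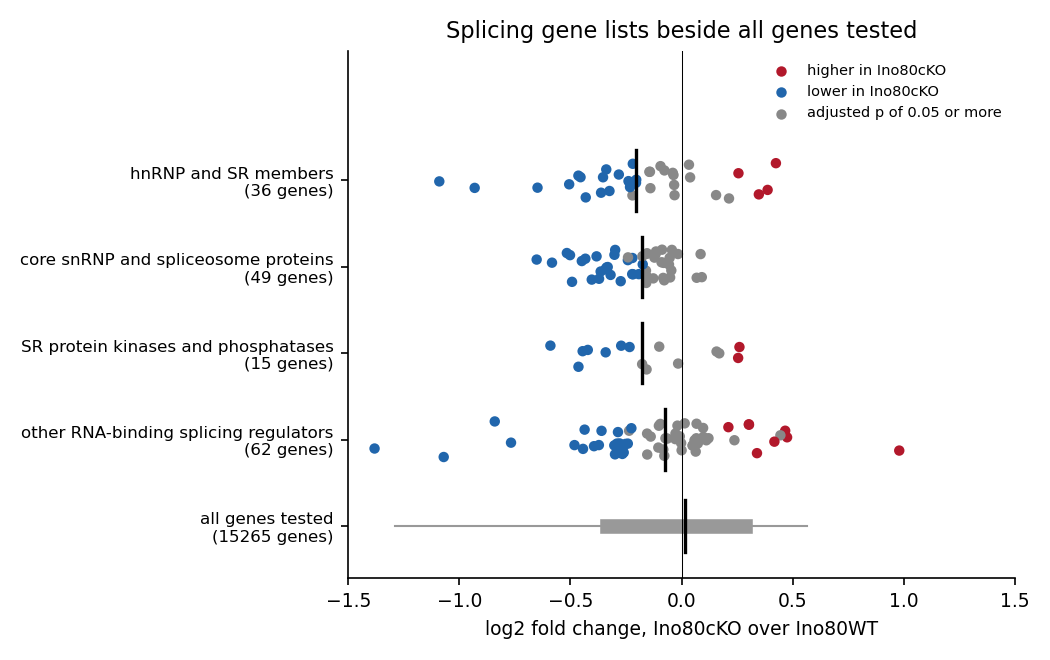
Log2 fold change (Ino80cKO over Ino80WT, TMM scaling) of each tested gene in the hnRNP and SR group and 3 other splicing lists, with the list median as a black line; for all genes tested the thick bar spans the 25th to 75th and the thin line the 5th to 95th percentile. The medians of the 4 lists lie between -0.20 and -0.075 and that of all genes at 0.02.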

How the data were processed

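The deposited files give raw counts as whole numbers, with a file for each library. The kit was stranded per the labels' protocols, and mm10, TopHat2, HTSeq and DESeq2 are named in the submitters' processing notes, without versions or roles. For the counting, the annotation used and the strand setting were not given in the sources used here. Besides 23420 genes, each file had 5 rows without a gene name, which held 35.5% to 44% of reads (reads that did not align uniquely were 18.4% to 26.3%). These rows were left out of every total and fit.

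The counts were analysed with edgeR 4.0.16 in R 4.3.3, using filterByExpr with minimum count 10 and total 15, TMM, and robust glmQLFit and glmQLFTest with genotype as the only term. P-values were adjusted by Benjamini-Hochberg over 15265 genes. The SE is the log2 fold change divided by the square root of F. Ratios of relatives were log2 of counts plus 0.5, tested over all assignments of the libraries to 2 groups of 5, which allow no p below 0.00794, and adjusted over 12 pairs. Exon lengths, overlaps and transcripts came from GENCODE M21 (GRCm38), and gene positions from RefSeq GRCm38.p6, both the build mm10. Fits were tested on simulated counts. No pair of libraries was alike within sampling noise (lowest chi-square per degree of freedom 9.4). Alternatives were library totals, RLE factors, DESeq2 1.42.0, limma-voom (limma 3.58.1), no filter, a mean of at least 1 CPM, a replicate block, and leaving out single libraries and 2 sets of 2.

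The members, lists, pairs and tests were chosen with earlier results of these data known. By rule, values in every library are given for up to 8 members with the smallest adjusted p in each direction, X-linked members and both genes of pairs that passed, and up to 4 genes of each other list are named. Spag6l was not found.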

Additional observations from a re-analysis of the deposited data

Results flagged for a closer look

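Each member's CPM and each count ratio was checked within each group of 5 libraries for a single library far from the others, in 96 groups, of which chance flags about 1 in 20. Hnrnph2 was 64.7 CPM in Ino80WT 4, and 51.9 to 54.9 CPM in the other Ino80WT libraries. Hnrnpr was 227 CPM in Ino80WT 1, and 215 to 218 CPM in the others of its group. Rbmx was 24.2 CPM in Ino80WT 3, and 34.3 to 37.6 CPM in the others of its group.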

How the results depend on the processing

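Library totals in place of TMM gave 5484 genes higher (2793 by TMM), 9 members lower (18), 3 core spliceosome genes higher (0) and 9 lower (24), 4 SR kinases and phosphatases higher (2) and 3 lower (7), and 19 other regulators higher (8) and 9 lower (22). They also put Hnrnph1, Hnrnpr, Hnrnpul1, Hnrnpul2, Srsf10, Srsf2, Srsf4, Srsf5 and Srsf6, uncalled either way, above zero, at 0.029, 0.033, 0.037, 0.14, 0.079, 0.099, 0.14, 0.14 and 0.15. The members' median log2 fold change was -0.029 by totals, -0.17 with RLE factors and with DESeq2, -0.13 without Ino80WT 1 and 2, -0.16 without Ino80cKO 3 and Ino80WT 3, and -0.22 to -0.16 with a single library left out. The cause was not tested. None of the 22 calls reversed under any of the 19 settings.

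Without Ino80WT 1 and 2, 1 core gene was higher, the ratios Rbmxl2 to Rbmx (-1.12) and Tra2a to Tra2b (0.094) no longer passed, Srsf6 to Srsf4 was -0.0025, and Hnrnpul2, Srsf4, Srsf5 and Srsf6 were at 0.028, 0.063, 0.035 and 0.066. Fewer libraries also leave fewer assignments, 56. Without Ino80cKO 3 and Ino80WT 3, Hnrnpa3, Srsf4 and Srsf6 were at -0.074, 0.010 and 0.020, and with RLE factors and DESeq2 Srsf6 was at 0.00048 and 0.00051. With single libraries left out, uncalled log2 fold changes crossed zero for Hnrnpa3 (-0.027 to 0.10), Srsf4 (-0.080 to 0.0033), Srsf5 (-0.050 to 0.0032), Srsf6 (-0.066 to 0.015) and Srsf9 (-0.0038 to 0.13), as did the log2 ratio differences of Ptbp3 to Ptbp1 (-0.092 to 0.037) and Srsf6 to Srsf4 (-0.016 to 0.030). That of Tra2a to Tra2b ran from 0.11 to 0.16 and lost its call in 7 of 10, and that of Srsf9 to Srsf1 ran from 0.20 to 0.34 and passed without Ino80WT 1.

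Libraries with the same replicate number did not deviate together (correlations -0.47 to 0.20, and of the Ino80cKO libraries only number 1 correlated best with its own number). With the replicate number as a block, 13 of the 36 members were lower and 3 higher (23.4% and 12.6% of all genes, against 27.6% and 18.3% without it). In that setting 15 core genes were lower, and the paired exact test of the ratios could give no p below 0.0625.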

Other observations

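The 8 other splicing regulators that rose lay outside the rule for naming and are given here, chosen after their values were seen. Scaf11, Celf2 and Rbfox2 had log2 fold changes of 0.34, 0.30 and 0.21 (edgeR adjusted p = 0.000908, 0.00657 and 0.0187). Mbnl1, a muscleblind protein known from muscle and heart, had 127 ± 15.2 CPM in Ino80cKO and 91 ± 10.8 CPM in Ino80WT (log2 fold change 0.48 ± 0.10, edgeR adjusted p = 0.00235). Its relative Mbnl2 had 108 ± 14.7 CPM in Ino80cKO and 78.2 ± 8.54 CPM in Ino80WT (log2 fold change 0.47 ± 0.10, edgeR adjusted p = 0.00313). Srrm4, an activator of microexons known from neurons, had 3.41 ± 0.386 CPM in Ino80cKO and 1.71 ± 0.415 CPM in Ino80WT (log2 fold change 0.98 ± 0.18, edgeR adjusted p = 0.000949). The X-linked paraspeckle gene Nono had 157 ± 13.8 CPM in Ino80cKO and 127 ± 16.1 CPM in Ino80WT (log2 fold change 0.30 ± 0.10, edgeR adjusted p = 0.0207), and the X-linked Rbm10 had 43.7 ± 3.88 CPM in Ino80cKO and 32.7 ± 3.04 CPM in Ino80WT (log2 fold change 0.42 ± 0.087, edgeR adjusted p = 0.0022). Rbmxl1, another autosomal retrocopy of Rbmx, had 93 ± 6.32 CPM in Ino80cKO and 93.1 ± 6.4 CPM in Ino80WT (log2 fold change -0.0019 ± 0.072, edgeR adjusted p = 0.985), and Rbmy, the Y-linked relative, was listed at 0 counts in every library. Reads that did not align uniquely were not counted in genes, so the count does not show that Rbmy was silent.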
